A study of Homo sapiens with 6 samples.

Results

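Keratin transcripts were examined in UWB1.289, a human ovarian cancer cell line that the study's methods describe as BRCA1-deficient and whose genotype the sample labels give as WT. The members were 10 keratin genes from a list of symbols chosen with earlier results of these data known. They were KRT5, KRT6A, KRT7, KRT8, KRT14, KRT17, KRT18, KRT19, KRT80 and KRT81. All 10 matched an Ensembl identifier among the 63677 in the count table, and 9 passed a minimum (over 10 counts, all 6 samples summed) and were tested among 21729 genes. The exception, KRT14, had 4 counts. Cells were grown for 24 h with Olaparib, an inhibitor of the poly(ADP-ribose) polymerase PARP1 (3 samples), or with the solvent DMSO (3 samples). The sample labels give 4 µM Olaparib, whereas the design text of the series gives 10 µM. Both groups were the same line, and the methods call the 3 samples per condition independent replicates. RNA came from pellets of many cells, so fewer cells with a transcript and less of it per cell cannot be told apart. Poly(A) RNA was sequenced and each sample held between 35360458 and 39640775 reads assigned to genes.

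Keratins are the intermediate filament proteins of epithelial cells. Each filament is built from an acidic type I and a basic type II keratin, so the members of both types are made in pairs: KRT8 with KRT18 in simple epithelia, KRT7 with KRT19 or KRT18 in glandular and duct epithelia, and KRT5 with KRT14 in the basal layer of stratified epithelia. KRT6A and KRT17 are known as keratins of activated, wounded or hyperproliferative epithelium. KRT80 is a type II epithelial keratin, and KRT81 was first described in hair. Type II genes lie in a cluster on chromosome 12 and type I genes in a cluster on chromosome 17, except that the type I gene KRT18 lies beside KRT8 on chromosome 12. The 10 members comprised 4 type I genes (KRT14, KRT17, KRT18 and KRT19) and 6 type II genes.

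The cells carried a simple-epithelial keratin profile. Together the members took at least 1.22% of the counts of each sample, and KRT7, KRT8, KRT18 and KRT19 made up 96.7% to 96.8% of these. Counts of all 54 keratin genes came to at least 99.77% from the 10 members. KRT6A took 0.424% to 0.437% of the members' counts after DMSO and 0.555% to 0.583% after Olaparib. By total counts, KRT8 ranked 8th, KRT7 9th and KRT18 14th among all genes.

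Levels of different genes were compared as normalised counts per kilobase of annotated exon. The exons were those of GENCODE release 44, which is not the annotation on which the reads were counted. A normalised count is the read count scaled to a common library size by edgeR's TMM method. After DMSO, KRT18 had the highest level of the members, at 43668 ± 759 (SD, n = 3) normalised counts per kilobase. KRT7 followed at 37142 ± 673 and KRT8 at 21030 ± 427. KRT19 stood at 7157 ± 255 and KRT80 at 2868 ± 75.3. The differences between these 5 neighbours were larger than their spread. Lower still were KRT6A at 677 ± 18.3 and KRT81 at 169 ± 7.31. KRT5 and KRT17, at 3.31 ± 1.24 and 3.08 ± 0.434, did not differ beyond their spread, and KRT14 stood at 0.454 ± 0.464. The first 3 levels depended on the length used, because the annotated exons of KRT8 span 6881 bases and its canonical transcript 1784. Per kilobase of canonical transcript, KRT18, KRT7 and KRT8 had 94846 ± 1649, 91403 ± 1656 and 81115 ± 1646 normalised counts after DMSO, in the same order but much closer together. Of the 50-base windows of these 3 transcripts, 47.2%, 88.3% and 60.8% occurred in no other annotated gene. Levels were not adjusted for this, so the order of the 3 is uncertain.

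**Figure D1:**
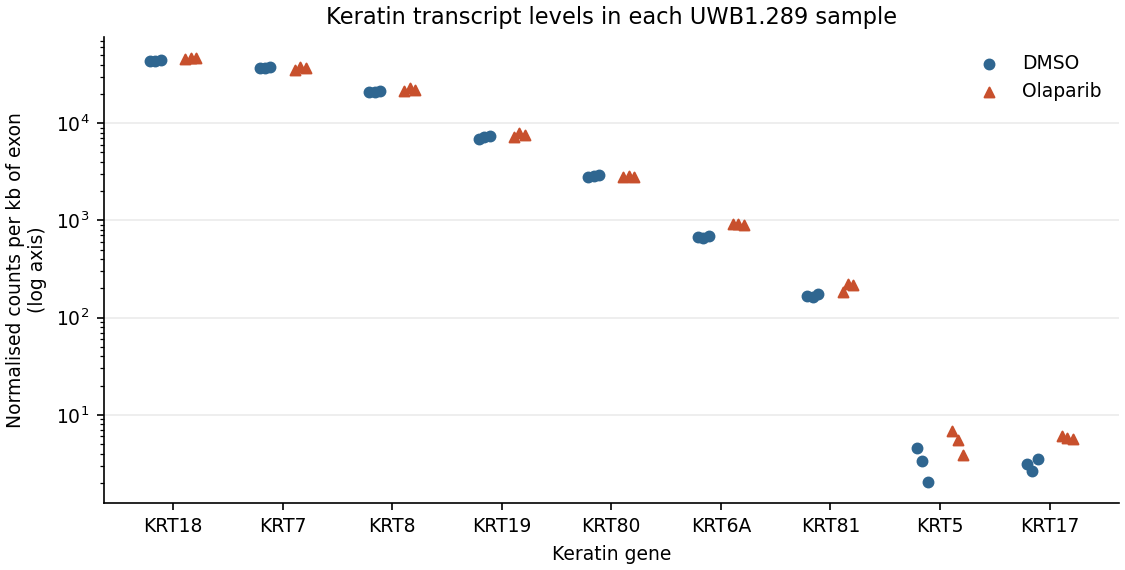
Normalised counts per kilobase of annotated exon (log axis) of the 9 tested keratins in each of the 3 DMSO samples (circles) and 3 Olaparib samples (triangles). The levels run from 43668 for KRT18 to 3.08 for KRT17 (means after DMSO), and only KRT6A, KRT81, KRT17 and KRT18 have all Olaparib samples above all DMSO samples.

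The keratin genes arose by duplication, and reads of close copies can be hard to place. KRT6A, the member with the clearest change, has near-identical neighbours in KRT6B and KRT6C: over 1692 coding bases it had 97.5% identity to KRT6B and 97.9% to KRT6C. Of the 50-base windows of its canonical transcript, 60.8% occurred in no transcript of another gene in GENCODE release 44. To show how these transcripts can be told apart, a stretch of 60 bases of exon 1 of KRT6A (GRCh38, chr12:52492694-52492753, minus strand) is given below with the matching stretches of KRT6B (chr12:52451584-52451643, minus strand) and KRT6C (chr12:52473243-52473302, minus strand), 5′ to 3′. It was chosen as the coding stretch within 1 exon with the most differences from both, and capitals mark the 5 bases at which a copy differs from KRT6A.
KRT6A: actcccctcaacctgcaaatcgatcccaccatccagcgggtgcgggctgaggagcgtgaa
KRT6B: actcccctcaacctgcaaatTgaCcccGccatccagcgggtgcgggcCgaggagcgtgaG
KRT6C: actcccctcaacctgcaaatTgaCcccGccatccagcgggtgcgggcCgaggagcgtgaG
Across this stretch KRT6B and KRT6C carry the same letters, so a read from it separates KRT6A from its copies but not the copies from each other.

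KRT81 has a similar relation to the hair keratin genes KRT83 and KRT86, with 93.3% and 94.1% identity over 1464 and 1448 aligned coding bases, and 55.4% of its windows occurred in no other gene. The stretch of 60 coding bases chosen by the same rule lies in exon 5 of KRT81 (chr12:52288011-52288070, minus strand), exon 5 of KRT83 (chr12:52316886-52316945, minus strand) and exon 7 of KRT86 (chr12:52305318-52305377, plus strand). Capitals mark the bases at which a copy differs from KRT81, 6 in KRT83 and 5 in KRT86.
KRT81: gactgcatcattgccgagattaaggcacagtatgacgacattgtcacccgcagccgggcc
KRT83: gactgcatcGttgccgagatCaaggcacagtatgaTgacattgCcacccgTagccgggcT
KRT86: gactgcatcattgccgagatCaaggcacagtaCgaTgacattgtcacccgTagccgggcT

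After Olaparib, KRT6A and KRT81 rose, and none of the members fell. Of the 9 members tested, 2 were higher and 0 lower by edgeR at a Benjamini-Hochberg adjusted p of 0.05. Over all 21729 genes tested, 2.15% were higher and 1.21% lower by this criterion. The shares over all genes only describe the background, since the members were chosen with earlier results of these data known. Both members also passed the study's further condition of an absolute log2 fold change above log2(1.2). In edgeR, 0.723% of all genes met both conditions upward and 0.483% downward. The study itself applied them to DESeq2 results, and in DESeq2's test here 1 member, KRT6A, met both. In its methods, the study also states a stricter limit, an absolute log2 change of 1.5, which no member met. At an unadjusted p under 0.05, 7 members were higher and 0 lower, against 7.83% higher and 6.97% lower of all genes tested. DESeq2's Wald test called 2 members higher, KRT6A and KRT18, but not KRT81, and 0 lower. Of the 13299 genes to which DESeq2 gave an adjusted p, it called 2.74% higher and 1.17% lower. With limma voom 4 members were higher and 0 lower, against 2.04% and 1.05% of all genes. The median log2 fold change of the 9 members was 0.079, against -0.0042 over all genes tested. In 4 members, KRT6A, KRT17, KRT18 and KRT81, all Olaparib samples lay above all DMSO samples, which was so for 10% of all genes. The opposite order was found in 0 members and in 9.29% of all genes. The exact permutation test of a single gene over 3 samples against 3 cannot give a p below 0.1, and it gave 0.1 for each of these 4 members.

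KRT6A (ENSG00000205420, chromosome 12, 52487176 to 52493257 on GRCh38, minus strand), a type II keratin of activated epithelium, had 2673, 2702 and 2627 normalised counts in the 3 Olaparib samples. In the DMSO samples it had 1972, 1935 and 2040. The groups were far apart, and the lowest treated sample was well above the highest control. The mean rose from 1982 ± 53.4 to 2667 ± 37.5 (SD, n = 3 each), an increase of 34.5% (95% interval 27.2% to 42.3%). On the log2 scale this was 0.43 with a standard error of 0.04 (edgeR adjusted p = 6.11e-09). KRT6A passed in all 13 alternative fits, with log2 fold changes between 0.41 and 0.45. The reads placed on its copies were few: KRT6B and KRT6C together had 8 to 22 counts in a sample, 0.378% to 0.835% of those of KRT6A. How reads that fit several copies were counted is not given in the study's methods. With the copies added, the sum was 1992 ± 55.1 after DMSO and 2685 ± 44 after Olaparib.

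KRT81 (ENSG00000205426, chromosome 12, 52285913 to 52291534, minus strand), a type II hair keratin, had 351, 433 and 414 normalised counts after Olaparib. After DMSO it had 322, 314 and 341. The groups did not overlap, but Olaparib replicate 1 lay close to the controls. The mean went from 326 ± 14.1 to 399 ± 42.7, an increase of 22.5% (95% interval 10.6% to 35.6%). On the log2 scale this was 0.29 with a standard error of 0.072 (edgeR adjusted p = 0.0149). This call did not hold in DESeq2's test (adjusted p = 0.0671). It was also lost when 1 sample was left out of the edgeR fit, with an adjusted p of 0.144 without Olaparib replicate 2, 0.094 without Olaparib replicate 3, 0.0638 without DMSO replicate 1 and 0.11 without DMSO replicate 2. KRT83 and KRT86 together had 108 to 121 counts in a sample, 27.2% to 38.6% of those of KRT81. When these were added, the log2 ratio of the group means was 0.22, and the groups still did not overlap (exact permutation test, two-sided, p = 0.1).

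**Figure D2:**
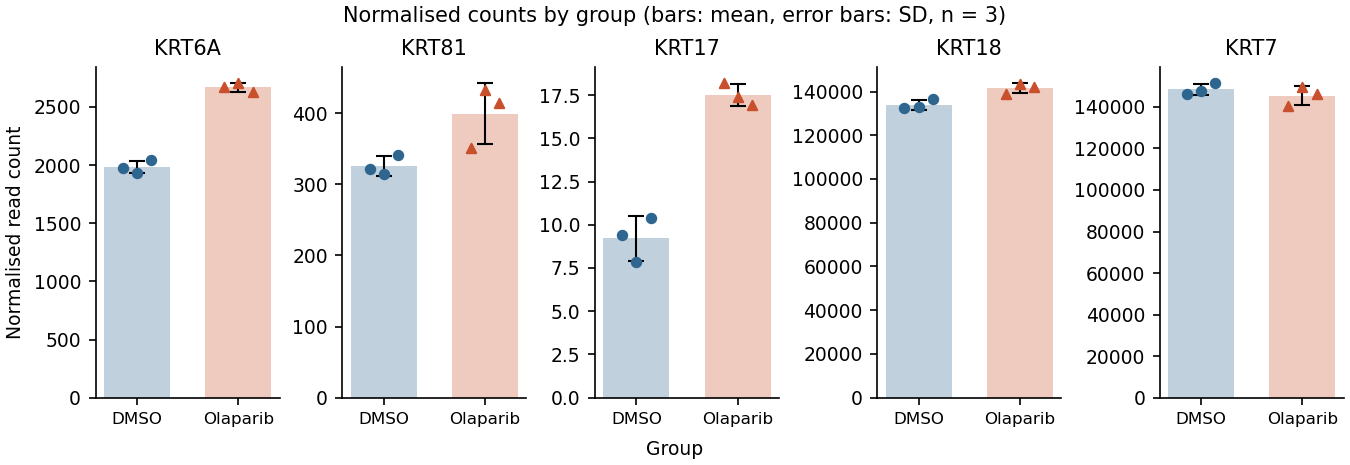
Normalised read counts of KRT6A, KRT81, KRT17, KRT18 and KRT7 in the 3 DMSO samples (circles) and the 3 Olaparib samples (triangles), with the group mean (bars, from 0) and SD (error bars). KRT6A shows separate groups with means of 1982 and 2667, KRT17 has few counts, and for KRT7 the groups overlap.

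The partners of simple epithelium, KRT8 and KRT18, had means about equally far above the controls after Olaparib, with groups that were separate for KRT18 and overlapped for KRT8. KRT18 (ENSG00000111057, chromosome 12, 52948871 to 52952906, plus strand), the type I partner, had 139024, 143509 and 142245 normalised counts after Olaparib and 132560, 132788 and 136706 after DMSO. The groups did not overlap, and DMSO replicate 3 came closest to the treated samples. The difference was 5.65% (95% interval 1.82% to 9.63%), a log2 fold change of 0.079 with an edgeR adjusted p of 0.0977. In 5 of the 13 alternative fits the adjusted p of KRT18 was under 0.05, among them DESeq2's test (0.0322) and limma voom (0.00822). KRT8 (ENSG00000170421, chromosome 12, 52897187 to 52949954, minus strand), the type II partner, had 147100, 156857 and 152019 normalised counts after Olaparib and 142275, 143884 and 147971 after DMSO. Here the groups overlapped, because Olaparib replicate 1 lay below DMSO replicate 3. Its difference was 5.03% (95% interval 1.03% to 9.2%) with an edgeR adjusted p of 0.181, and 4 of the 13 alternative fits put it under 0.05. Both genes were among those whose adjusted p fell below 0.05 when Olaparib replicate 1 was left out, at 0.0108 for KRT18 and 0.0131 for KRT8 (edgeR).

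Counts of KRT8 and KRT18 carry some uncertainty of placement. Both genes lie side by side on opposite strands, and 7.63% of the annotated exon bases of KRT8 and 17.1% of those of KRT18 overlap the other gene. The study's methods name a stranded library kit, but the strand setting of the counting is not given in the sources used here. Both also have many processed pseudogenes, copies of the spliced transcript elsewhere in the genome. On either strand, 47.2% of the 50-base windows of the KRT18 transcript and 60.8% of those of KRT8 occurred in no other annotated gene. The gene that shared most windows with KRT18 was KRT8 itself (18.7% of the windows), where exon overlap on opposite strands also counts as sharing. For KRT8 it was the pseudogene KRT8P3 (22.8%). The reads counted on the pseudogenes were few, 1087 to 1143 in a sample for the 51 KRT8 pseudogenes and 164 to 252 for the 67 KRT18 pseudogenes. These were at most 0.831% and 0.175% of the counts of the parent. The study's methods do not say how reads that align to several places were counted. These shares therefore do not bound the reads that were misplaced or left out. Of the 53 keratin pseudogenes tested, edgeR called 0 higher and 1 lower, against 2.15% and 1.21% of all genes, and 1 of 53 is near the latter. That gene was KRT8P12 on chromosome 3, of whose annotated exon bases 6.11% overlap KPNA4 on the opposite strand. KRT8P12 had 306 ± 17.1 normalised counts after Olaparib against 365 ± 19 after DMSO (log2 fold change -0.25, edgeR adjusted p = 0.0338, DESeq2 0.14). Its call was also lost in limma voom (0.0535) and without Olaparib replicate 1 or 3 or DMSO replicate 1 or 2 (0.0802 to 0.179).

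KRT19 and KRT7, keratins of glandular epithelium, did not pass the test. KRT19 (ENSG00000171345, chromosome 17, 41523617 to 41528308, minus strand), the smallest type I keratin, had 16928, 18329 and 17601 normalised counts after Olaparib and 16110, 16749 and 17301 after DMSO. Olaparib replicate 1 lay within the range of the controls. The difference was 5.37% (95% interval 0.934% to 10%, edgeR adjusted p = 0.203). KRT7 (ENSG00000135480, chromosome 12, 52232520 to 52252186, plus strand) had 140305, 149560 and 146185 normalised counts after Olaparib and 146264, 147824 and 151504 after DMSO. Its groups overlapped, with a difference of -2.14% (95% interval -5.86% to 1.72%, edgeR adjusted p = 0.667). KRT80 (ENSG00000167767, chromosome 12, 52168996 to 52192014, minus strand) had 12274 ± 214 normalised counts after Olaparib and 12518 ± 329 after DMSO. This was a difference of -1.95% (95% interval -5.81% to 2.06%, edgeR adjusted p = 0.716). For both KRT7 and KRT80 the interval includes 0, and a change within its bounds remains possible with these samples.

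The basal and stress keratins other than KRT6A were near the limit of detection. KRT17 (ENSG00000128422, chromosome 17, 41619442 to 41624842, minus strand), a type I partner of KRT6A, had 18, 17 and 17 counts after Olaparib and 9, 8 and 11 after DMSO. The groups did not overlap, although no sample had more than 18 reads. The log2 fold change was 0.91 with a 95% interval from 0.26 to 1.57 and an edgeR adjusted p of 0.129. KRT17 passed in none of the 12 alternative fits that gave it an adjusted p, which ranged from 0.0927 to 0.318, and DESeq2 gave it none. KRT5 (ENSG00000186081, chromosome 12, 52514575 to 52520530, minus strand), the type II keratin of basal cells, had 28, 22 and 16 counts after Olaparib and 18, 14 and 9 after DMSO. Its groups overlapped, and its log2 fold change of 0.71 (95% interval 0.092 to 1.33) had an edgeR adjusted p of 0.241. KRT14 (ENSG00000186847, chromosome 17), the partner of KRT5, had 1, 0 and 0 counts after Olaparib and 2, 1 and 0 after DMSO. These counts are too low for any change to be measured.

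**Figure D3:**
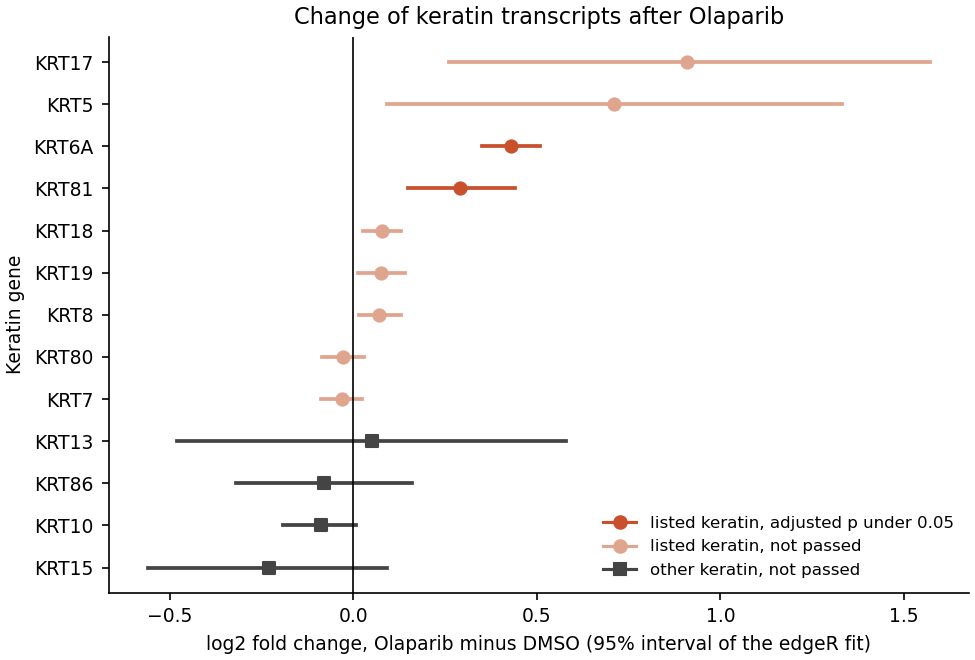
The log2 fold change (Olaparib minus DMSO) and its 95% interval from the edgeR fit for the 9 tested keratins of the list (circles) and the 4 other keratins with a mean of at least 20 counts (squares). KRT6A at 0.43 and KRT81 at 0.29 passed an adjusted p of 0.05. KRT17 and KRT5 lie further to the right, with wide intervals, and KRT7 and KRT80 lie at 0 within narrow ones.

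Because filaments need both types, the ratio of type I to type II transcripts was examined in each sample, which does not depend on the library size. The log2 ratio of summed normalised counts per kilobase of exon was -0.20, -0.23 and -0.22 after Olaparib and -0.28, -0.29 and -0.28 after DMSO. The groups did not overlap and differed by 0.068 on the log2 scale, a 1.05-fold shift toward type I (p = 0.1 by exact permutation, two-sided, the lowest that 3 against 3 can give). The sums rest mainly on KRT18, KRT7 and KRT8, none of which passed edgeR's test on all samples, so the shift does not describe each type as a whole. Among 3 partner pairs compared, KRT18 to KRT8 had log2 ratios of 1.06 ± 0.024 after Olaparib and 1.05 ± 0.0075 after DMSO. Its groups overlapped, with a difference of 0.0088 (exact permutation test, p = 0.6) that turned to -0.0014 without Olaparib replicate 1. With canonical transcript lengths the log2 ratio of KRT18 to KRT8 was 0.23 in both groups, so its size depends on the length used. The ratio of KRT19 to KRT7 was higher after Olaparib, at -2.27 ± 0.014 against -2.38 ± 0.027, a 1.08-fold difference with groups that did not overlap (exact permutation p = 0.1, adjusted p over the 3 pairs = 0.15). KRT17 to KRT6A went from -7.79 ± 0.17 to -7.29 ± 0.047, also without overlap (exact permutation p = 0.1, adjusted p = 0.15), but it rests on the few KRT17 counts given above. With canonical lengths these were -7.15 and -6.65, and the difference was again 0.51. KRT14 to KRT5 was not compared, since KRT14 had no counts in 3 of the 6 samples.

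**Figure D4:**
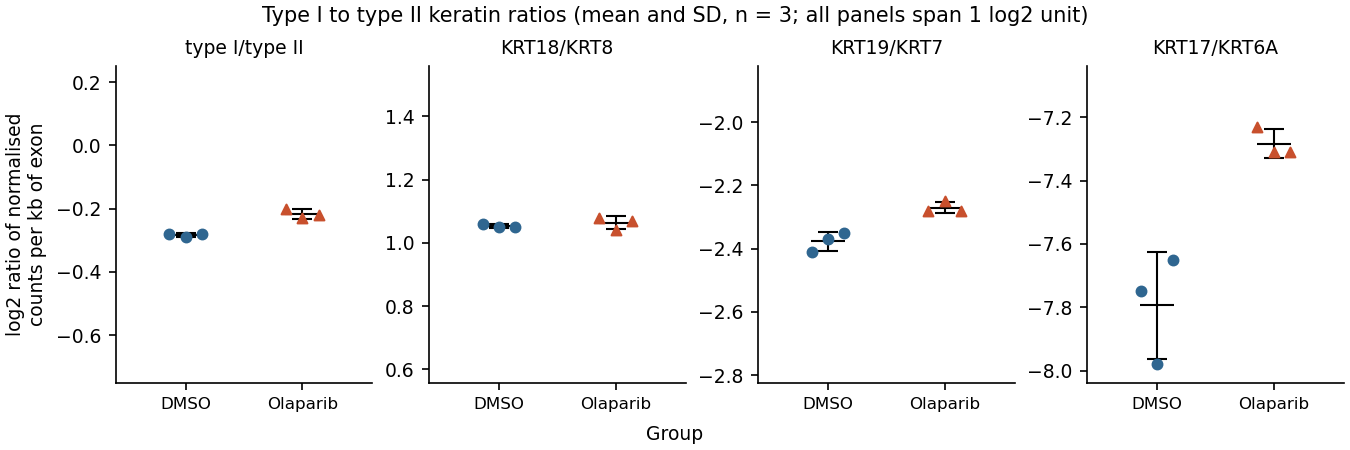
The log2 ratio of type I to type II normalised counts per kilobase of exon in each DMSO sample (circles) and Olaparib sample (triangles), for all members and for 3 partner pairs, with the mean and SD. Each panel spans the same range of log2 units. KRT18/KRT8 overlaps between the groups at 1.05 and 1.06, and the other 3 ratios are higher in every Olaparib sample.

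The members did not vary as one unit over the samples. Over the 6 samples, Pearson's r of log2 CPM was 0.95 between KRT8 and KRT18, 0.98 between KRT8 and KRT19, and 0.89 between KRT7 and KRT80. Between KRT7 and KRT18 it was -0.032, and between KRT5 and KRT80 it was -0.80. KRT6A had an r of 0.99 with KRT17 and 0.92 with KRT18. These values describe 6 libraries in 2 groups, so a difference between the groups enters each of them. Those with KRT5 or KRT17 also rest on the few counts of these genes. Among 11821 genes with a mean of at least 100 counts, those with the pattern most like KRT6A included MCC and UBE2C, with r of 0.9960 and 0.9959 over the 6 samples. For KRT18 the 3 most alike were FZR1, UBALD2 and JMJD4, with r of 0.9961, 0.9956 and 0.9948.

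The other keratin genes were scarce. Of 44 keratins outside the list, 13 were tested, 31 had 10 counts or fewer in total, and 16 of these had none. None of the 13 passed an adjusted p of 0.05 in edgeR's test, in DESeq2's or in limma voom, and 1 was higher and 0 lower at an unadjusted p under 0.05, where 1 of 13 is near the 7.83% of all genes that were higher. That gene, named after its values were seen, was KRT6B, with 9, 11 and 7 counts after Olaparib and 5, 4 and 3 after DMSO (unadjusted p = 0.0208, adjusted p = 0.216 from edgeR). Since KRT6B shares most of its sequence with KRT6A, these reads may be placed uncertainly. KRT10, the type I keratin of differentiating skin and the most abundant of the 44, had 725 ± 13.3 normalised counts after Olaparib and 771 ± 13.7 after DMSO (log2 fold change -0.089, edgeR adjusted p = 0.397). KRT15, a basal type I keratin, had 50.5 ± 2.64 and 59.3 ± 3.18 (adjusted p = 0.548), and KRT13 had 23.8 ± 8.72 and 23.1 ± 1.41 (adjusted p = 0.954). KRT86, whose gene spans KRT81 on the opposite strand, had 104 ± 6.15 and 110 ± 5.54 normalised counts, a log2 fold change of -0.079 (edgeR adjusted p = 0.833). Thus KRT81 and KRT86, which share sequence and position, had fold changes of opposite sign, and the difference between them was not tested.

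The other intermediate filament genes give a comparison for the keratins. Of 12 tested, edgeR called 2 higher and 0 lower, and DESeq2 and limma voom also gave 2 and 0. Over all genes tested, edgeR called 2.15% higher and 1.21% lower. At an unadjusted p under 0.05, 3 of the 12 were higher and 1 lower (7.83% and 6.97% of all genes). Fitted log2 fold changes were positive in 6 and negative in 6, with a median of 0.0046. Vimentin (VIM), the intermediate filament of mesenchymal and many cultured cells, had 9159, 9357 and 9269 normalised counts after Olaparib and 8205, 8202 and 8980 after DMSO. It rose by 0.13 (log2, edgeR adjusted p = 0.0161), without overlap of the groups. The call was lost without Olaparib replicate 2 or 3 or DMSO replicate 1 or 2, with adjusted p values from 0.062 to 0.163. INA, a neuronal intermediate filament gene, rose from 2620 ± 27.8 to 2944 ± 69.7 (log2 fold change 0.17, adjusted p = 0.00762, and 0.0737 without Olaparib replicate 3). The lamin gene LMNA, the most abundant of the list, had 22057 ± 678 and 22111 ± 280 (log2 fold change -0.0036, adjusted p = 0.975). For VIM 24.6% and for INA 13.9% of the annotated exon bases overlap a gene on the opposite strand.

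Keratin filaments are anchored at desmosomes and hemidesmosomes by linker proteins. Of 18 such genes tested, 0 passed in edgeR's or DESeq2's test and 1 in limma voom, whereas 3 were higher and 0 lower at an unadjusted p under 0.05 (7.83% and 6.97% of all genes). The median log2 fold change was 0.04. Plectin (PLEC), the most abundant linker at 26095 ± 1670 normalised counts after Olaparib and 26975 ± 1035 after DMSO, had a log2 fold change of -0.048 (edgeR adjusted p = 0.559). Among 20 genes of squamous differentiation, the program in which stratified keratins are usually found, 11 had 10 counts or fewer, loricrin and filaggrin included. None of the 9 tested passed in edgeR, DESeq2 or limma voom, and 1 was higher at an unadjusted p under 0.05, against 7.83% of all genes. The fitted log2 fold change was positive in all 9, with a median of 0.22, against -0.0042 over all genes tested. The share of all genes with a positive value was not computed. SFN, the most abundant, had 5303 ± 171 and 5278 ± 104 normalised counts (log2 fold change 0.0067, edgeR adjusted p = 0.953).

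Among transcription factors that are known to act on keratin or epithelial genes, 14 were tested, 3 were higher and 0 were lower in edgeR's test. Over all genes tested, 2.15% were higher and 1.21% lower in that test. DESeq2 called 2 of the 14 higher and limma voom 3, and both called 0 lower. OVOL1, an epithelial zinc finger factor, rose from 176 ± 11.6 to 230 ± 7.31 normalised counts (log2 fold change 0.38, edgeR adjusted p = 0.00895, DESeq2 0.0515). The ETS factors ELF3 and EHF, which are restricted to epithelia, rose as well. ELF3 had 424, 418 and 433 normalised counts after Olaparib and 353, 324 and 360 after DMSO (log2 fold change 0.30, adjusted p = 0.00414, and 0.0635 without DMSO replicate 2). EHF had 1495, 1348 and 1434 against 1287, 1224 and 1104 (log2 fold change 0.24, adjusted p = 0.00307, and 0.0588 without DMSO replicate 3). KLF5, the most abundant of the list with 3960 ± 210 and 3741 ± 51.6 normalised counts, did not pass (adjusted p = 0.284). For OVOL1 27.3% and for ELF3 18.5% of the annotated exon bases overlap another gene, for ELF3 partly on the same strand.

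Markers of cell identity were read as a check of the labelled line. Of 10 epithelial and ovarian carcinoma markers, 9 were tested, and WT1 had 8 counts in total. EPCAM, an epithelial adhesion molecule, had 27310 ± 251 normalised counts after Olaparib and 28061 ± 305 after DMSO (adjusted p = 0.528). CLDN4 and PAX8, a tight junction gene and a Müllerian transcription factor, were higher after Olaparib by 0.14 and 0.10 on the log2 scale (edgeR adjusted p = 0.0271 and 0.0399). The CLDN4 call was lost without Olaparib replicate 2 or 3 or DMSO replicate 1 or 2 (0.0641 to 0.175), and that of PAX8 without any 1 sample other than Olaparib replicate 1 (0.0609 to 0.206). Of the fibroblast markers, LUM had no counts and COL3A1, DCN and PDGFRB 5 or fewer in total, and COL1A2 had 1447 ± 53.5 and 1461 ± 61.3 normalised counts. The summed fibroblast markers lay at 1642 to 1849 normalised counts after Olaparib and 1712 to 1840 after DMSO. The endothelial marker PECAM1 had no counts, CDH5 had 1526 ± 28.3 and 1606 ± 63.6, and VWF was higher, with 67.4 ± 3.17 normalised counts after Olaparib and 41.8 ± 1.96 after DMSO (adjusted p = 0.0106 from edgeR and 0.071 from DESeq2). The leukocyte markers summed to 134 to 153 after Olaparib and 109 to 137 after DMSO, with PTPRC at 70.8 ± 5.44 and 63.9 ± 11.2. The part of these markers in the keratin results was not tested.

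**Figure D5:**
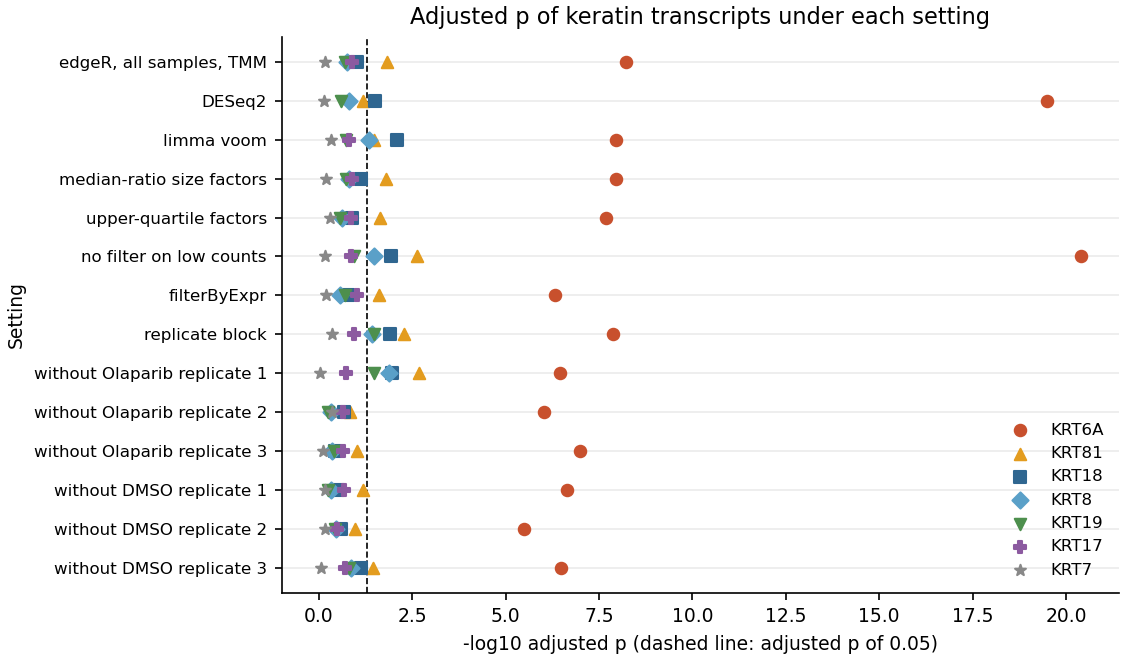
The adjusted p (as -log10, dashed line at 0.05) of 7 keratins in the edgeR fit on all samples and in 13 alternatives. KRT6A lies to the right of the line in every setting, KRT81 in the fit on all samples and 8 of the 13, KRT18 in 5, KRT8 in 4 and KRT19 in 2, and KRT17, which DESeq2 left without an adjusted p, and KRT7 in none.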

How the data were processed

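Poly(A) RNA of 3 Olaparib and 3 DMSO samples was sequenced. As the study's methods describe, the authors trimmed adapters with Trimmomatic, aligned with STAR (GRCh38), marked PCR duplicates with Picard and assigned reads with featureCounts. The authors deposited these whole-number counts per gene, without normalization. Whether duplicates were removed, the strand setting and the read length are not given in the sources used here. The methods also do not state how reads that align to several places were handled. Genes with more than 10 counts in total were tested with edgeR 4.0.16 (TMM factors 0.995 to 1.01, quasi-likelihood test, Benjamini-Hochberg adjustment over all genes, R 4.3.3). The alternatives used DESeq2 1.42.0, limma 3.58.1, other scalings and filters, a replicate block and each sample left out. Replicates were compared by chi-square over 15525 genes, and all differed by more than sampling noise (1.81 to 4.11 times the degrees of freedom). Symbols, lengths and transcripts came from GENCODE release 44 (GRCh38), which held 81.9% of the identifiers, and NEFL had no match. Since the other identifiers were absent from it, the reads had been counted on another annotation. Exon lengths, exon overlaps and levels per kilobase therefore need not match the exons on which reads were counted. The fit was tested on simulated data. The members and lists were chosen with earlier results of these data known. Genes outside the members were named by a rule: other keratins with a mean of at least 20 counts, up to 6 genes per list that passed plus the most abundant, pseudogenes of members that passed, and the 3 genes most correlated with KRT6A and with KRT18, of which 1 is not reported here. Intervals cover the model's error at confidence level 95%. Ratios within a sample were compared by exact permutation tests.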

Additional observations from a re-analysis of the deposited data

How the results depend on the processing

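The number of members higher with an adjusted p under 0.05, 2 in the edgeR fit, was 4 in limma voom (KRT8 and KRT18 added) and 4 without a filter on low counts (the same genes added). With the replicate number as a block it was 5 (KRT8, KRT18 and KRT19 added). With 1 sample left out it lay between 1 and 5, being 5 without Olaparib replicate 1 and 1 (KRT6A) without Olaparib replicate 2 or 3 or DMSO replicate 1 or 2. In DESeq2's test it was 2, with KRT18 in place of KRT81. The number differentially expressed, 2, was 1 in DESeq2, 0 at an absolute log2 fold change above 1.5, the limit in the study's methods (no member reached it), and 1 to 2 with 1 sample left out. The replicate numbers were not taken as pairs, because the deviations of same-numbered samples correlated at -0.0791, 0.105 and -0.104. No member's fold change turned sign in any of the 13 alternatives. Signs turned only for named genes near 0. KRT13 went to -0.013 in limma voom and lay between -0.25 and 0.28 with 1 sample left out, and SFN went to -0.0024 with upper-quartile factors. With 1 sample left out, SFN lay between -0.019 and 0.026, LMNA between -0.028 and 0.016, PLEC between -0.086 and 0.00072 and COL1A2 between -0.045 and 0.018. Over 30 named genes and 390 combinations of gene and alternative, 335 kept direction and side of the threshold, 3 kept direction with no adjusted p given (KRT5, KRT13 and KRT17 in DESeq2), 30 no longer passed, 11 newly passed and 11 turned. Low counts limit KRT5, KRT14 and KRT17, and the ratio of type I to type II transcripts used lengths of the canonical transcript as an alternative chosen after seeing the data, which moved it to 0.06. The causes were not tested.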
